A study of Mus musculus with 6 samples.

Results

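The genes Lck, Fyn, Zap70, Lat, Lcp2, Vav1, Plcg1, Prkcq and Rasgrp1 encode kinases, adaptors and effectors that act in the first steps below the T-cell receptor. They were taken by symbol from the deposited expression table, through the Ensembl identifiers of GENCODE release M21, with no threshold on any measured value. Each of the 9 symbols matched 1 of the 21135 rows. All 9 passed the filter on low values, a mean of at least 10 normalised reads over the 6 libraries, which left 17815 genes to test.

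The RNA came from DN3 thymocytes of C57BL/6 mice, an immature stage with neither CD4 nor CD8 at the surface, at which the newly rearranged T-cell receptor beta chain is tested as part of the pre-T-cell receptor. In the 3 mutant libraries both alleles of NMe, a distant enhancer of Myc to which Notch binds, carried mutations in GATA sites 1 and 2. In the 3 wild-type libraries NMe was unaltered. The sources used here do not give age, sex or the number of mice behind a library, and p-values therefore measure the spread between these libraries, which may be technical in part.

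When a T-cell receptor or pre-T-cell receptor is engaged, Lck, helped by Fyn, phosphorylates the CD3 and zeta chains, and Zap70 docks on them and becomes active. Zap70 then phosphorylates the adaptors encoded by Lat and Lcp2, on which a complex with Vav1 and Plcg1 forms. Plcg1 splits a membrane lipid into inositol trisphosphate, which releases calcium, and diacylglycerol, which recruits Prkcq and Rasgrp1 and so opens the NF-kappaB and Ras routes. In the thymus, Lck and Fyn together are needed for passage through the pre-T-cell receptor checkpoint.

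Values are normalised reads, that is, reads per gene divided by 1 size factor for each library. The 6 libraries held 38.6 to 51.3 M reads on the listed genes, and the first principal component, with 42.0% of the variance, separated the genotypes. Wild type replicate 3 stood apart on the second component (17.1% of the variance), and wild type replicate 2 held haemoglobin reads, with a summed erythroid list of 34.2 to 56.1 normalised reads in the mutant and 16.0 to 8177 in wild type. Myc, the gene that NMe serves, had 5562, 4612 and 6165 normalised reads in the mutant libraries against 18041, 19223 and 20196 in the wild-type libraries. It was 3.52-fold lower in the mutant (log2 change -1.82 ± 0.12 SE, limma adjusted p = 4.22e-05). The defining markers of the DN3 label were present. Il2ra and Ptcra reached at least 96837 and 18456 normalised reads in every mutant library and at least 55810 and 16260 in every wild-type library, whereas Cd4 and Cd8a stayed at or below 39.7 and 32.6 in the mutant and at or below 85.4 and 55.4 in wild type.

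Of the 9 genes, 4 were higher in the mutant and none was lower at an adjusted p under 0.05 in limma's test of log2(value + 1), adjusted over the 17815 genes by the Benjamini-Hochberg method. Rasgrp1 and Prkcq, which read the diacylglycerol signal, rose 1.72-fold and 1.69-fold. The kinases Fyn and Lck rose less, 1.41-fold and 1.25-fold, and Lat, Plcg1 and Lcp2 were 1.28-fold, 1.2-fold and 1.17-fold higher without passing the threshold. Zap70 and Vav1 overlapped between the genotypes. Over all tested genes 7.94% were called higher, 10.9% lower and 18.8% in either direction, so that the 4 of 9 called higher (44.4%) stood above the share of the table. The 9 genes had standard errors of 0.09 to 0.13, against a median of 0.19 for all tested genes. A change of the same size is thus called more readily among them.

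In 7 of the 9 genes every mutant library lay above every wild-type library, against 18.0% of all tested genes, and no gene of the 9 showed the reverse, against 20.3% (38.3% of all tested genes had no overlap in either direction). The median log2 change of the 9 genes was 0.32, against 0.03 for all tested genes. With all libraries brought to equal totals, the table split into 1827 higher and 1647 lower calls, against 1414 higher and 1938 lower with the deposited scaling, and 5 of the 9 genes were called. Bulk RNA cannot tell a change in the share of a cell type from a change in RNA per cell.

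**Figure D1:**
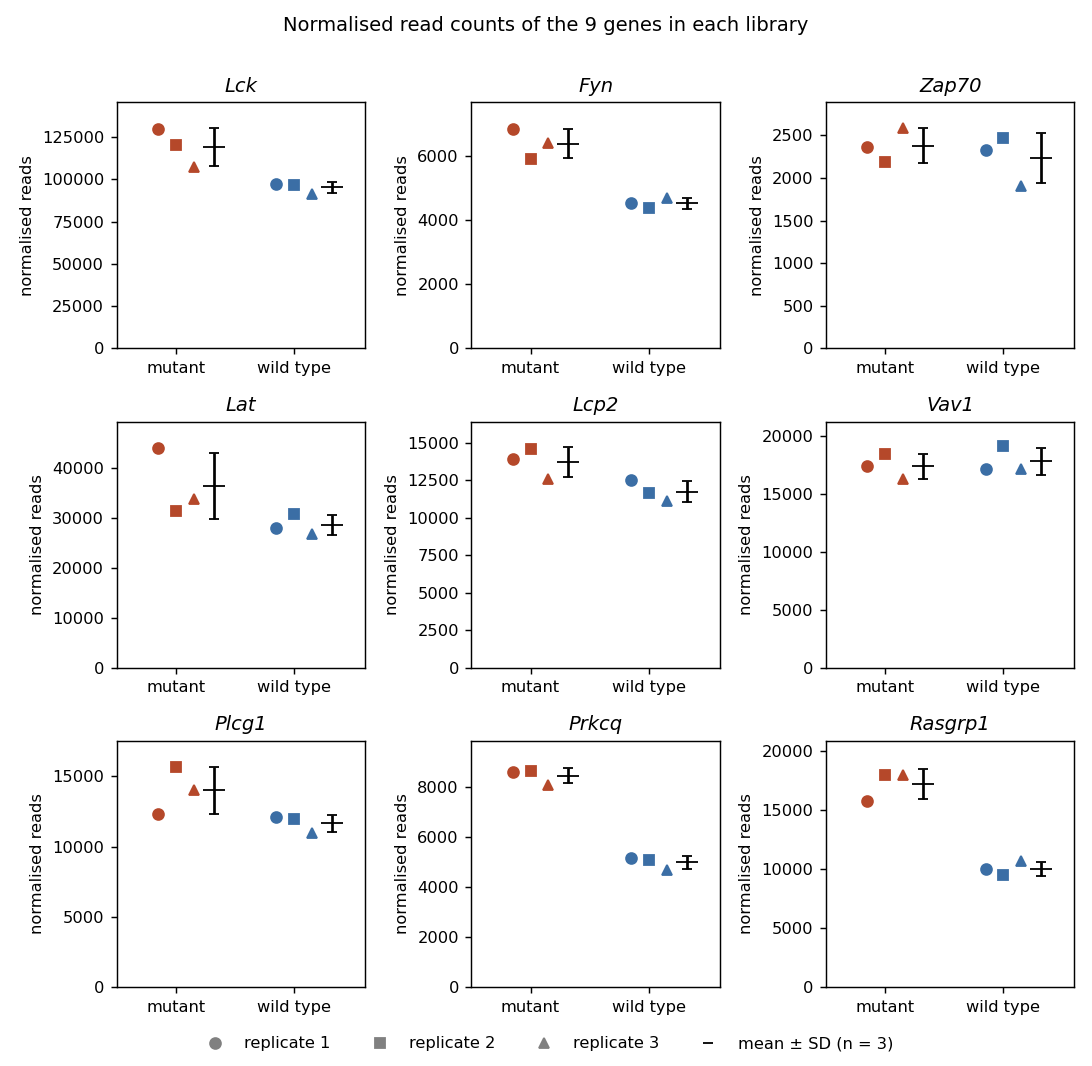
Normalised reads (vertical axis, from 0) of each of the 9 genes in the 3 mutant libraries (left) and 3 wild-type libraries (right). Symbols mark replicates 1 to 3 and the bars are mean ± SD (n = 3). The groups are separate in 7 panels, with the mutant above, and overlap for Zap70 and Vav1.

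Markers of other cells that the sort could hold moved with the genotype as well. The calls in these lists stand beside 7.94% of all tested genes called higher and 10.9% called lower. Of the gamma-delta T-cell list, 7 of 8 genes had a row and 5 of the 6 tested were called higher (Trdc, Sox13, Blk and Maf among them). Their summed level was 39612 to 49250 normalised reads in the mutant and 32715 to 36696 in wild type, and Zbtb16 was at or below 21.7 in all libraries and at 0 in 1 of them. Of the natural killer and innate lymphoid list, 6 of 8 genes had a row and 1 of 5 tested was called higher (Nkg7, a call lost with robust empirical Bayes, at an adjusted p of 0.0642, and without a mean-variance trend, at 0.0822). Without wild type replicate 1, Gzmb was called higher too (adjusted p = 0.0114), with 11.6, 17.2 and 38.6 normalised reads in the mutant libraries against 22.3, 0 and 0 in the wild-type libraries.

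The summed level of that list was 19944 to 31820 normalised reads in the mutant and 14323 to 17546 in wild type, with Eomes at or below 7.42 and Prf1 at or below 30.9. Eomes, Prf1 and Gzmb thus added little to this sum, which the remaining genes of the list carried. The B-cell list (5 of 8 genes with a row) summed to 13183 to 15393 in the mutant and 18114 to 20803 in wild type, nearly all of it Ighm and Cd79b. Of its 3 tested genes 1, Ighm, was called lower, and in all 19 alternatives as well. The list of DN4 and double-positive thymocytes summed to 58017 to 65096 in the mutant and 46672 to 50059 in wild type, with 4 of its 9 genes called higher and 1 lower. The 4 came to 2 without mutant replicate 2 or wild type replicate 2, to 1 without wild type replicate 1, and to 0 without a mean-variance trend. In DESeq2 and with library weights they came to 5. The 1 lower call was lost in 6 of 19 alternatives. The list was split, with every mutant library above every wild-type library in 6 of the 9 genes and below in 3. Of all tested genes, 18.0% lay above in this way and 20.3% below. That of DN1 and DN2 progenitors summed to 2581 to 3541 in the mutant and 3842 to 4788 in wild type, with 2 of 8 called lower. The 2 came to 1 without mutant replicate 1, wild type replicate 1, wild type replicate 3 or a mean-variance trend. They came to 3 in DESeq2 and without mutant replicate 2. The myeloid list (1335 to 2266 in the mutant, 1245 to 1792 in wild type) and the stromal list (9978 to 13538 in the mutant, 8228 to 10042 in wild type) overlapped. Only 3 of 8 stromal genes had a row, and 1 was called higher, a call lost in 6 of 19 alternatives. No myeloid gene was called. The DN3 list itself summed to 457365 to 592461 in the mutant and 376465 to 414053 in wild type, with 6 of its 10 genes called higher, Il2ra among them, and 1, Rag1, called lower. The 6 came to 2 without mutant replicate 2 or wild type replicate 3, to 3 without mutant replicate 1, and to 1 without a mean-variance trend, and 2 of the 7 calls held in all 19 alternatives. The part of these cells in the changes of the 9 genes was not tested.

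The first kinase of the pathway, Lck (ENSMUSG00000000409.14, chr4:129548344-129573641 on GRCm38, minus strand), had 129900.0, 120145 and 107519 normalised reads in the mutant libraries against 97476, 96526 and 91496 in the wild-type libraries. Every mutant library was above every wild-type library, with the lowest mutant value in replicate 3. The log2 change was 0.32 ± 0.09 (SE, 95% confidence interval 0.11 to 0.53, limma adjusted p = 0.0386). This call was near the threshold. It was lost when mutant replicate 1, mutant replicate 2 or any 1 wild-type library was left out, with adjusted p-values up to 0.122 and log2 changes of 0.26 to 0.39 over all 6 such fits, and also without a mean-variance trend (0.136), with a pseudocount of 8 (0.0526) and with a minimum mean of 50 (0.0501).

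Fyn (ENSMUSG00000019843.14, chr10:39368855-39565381, plus strand), the second Src-family kinase of the receptor complex, had 6852, 5927 and 6408 normalised reads in the mutant libraries against 4526, 4367 and 4707 in the wild-type libraries. The genotypes did not overlap. Fyn rose by 0.49 ± 0.10 on the log2 scale (SE, 95% confidence interval 0.28 to 0.71, limma adjusted p = 0.00685), and the call held in all 19 alternatives, with an adjusted p of at most 0.0458.

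Zap70 (ENSMUSG00000026117.10, chr1:36761798-36782818, plus strand), the kinase that docks on the phosphorylated receptor chains, had 2363, 2184 and 2592 normalised reads in the mutant libraries against 2328, 2465 and 1903 in the wild-type libraries. The ranges overlapped, with wild type replicate 3 lowest of all. The log2 change was 0.10 ± 0.13 (SE, 95% confidence interval -0.19 to 0.39, limma adjusted p = 0.639), and it was -0.013 without wild type replicate 3. Zap70 also had the fewest reads of the 9 genes, 2139 before scaling in its lowest library, for which the counting error alone is 2.16%.

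To show the sequence that precedes the kinase genes called higher, the bases before the RefSeq transcript starts of Lck and Fyn are given 5′ to 3′ on the gene's own strand, from RefSeq on GRCm38.p6. Windows of 250 bases before each start were searched, and only the bases outside annotated exons are printed. Capitals mark a GATA motif, searched on both strands in the spellings AGATAA with its variant AGATAG, and TGATAA with its variant TGATAG. Lck has a pair of annotated starts, the one nearer to the coding exons, which immature thymocytes are known to use (chr4:129558392-129558622, minus strand) and the farther one (chr4:129573642-129573891, minus strand). The Fyn stretch is chr10:39369549-39369763 (plus strand).
Lck near start: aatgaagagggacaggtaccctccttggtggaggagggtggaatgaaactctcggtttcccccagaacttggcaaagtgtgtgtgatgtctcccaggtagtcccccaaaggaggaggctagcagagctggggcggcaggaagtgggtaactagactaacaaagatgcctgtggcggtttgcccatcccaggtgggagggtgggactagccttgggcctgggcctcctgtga
Lck far start: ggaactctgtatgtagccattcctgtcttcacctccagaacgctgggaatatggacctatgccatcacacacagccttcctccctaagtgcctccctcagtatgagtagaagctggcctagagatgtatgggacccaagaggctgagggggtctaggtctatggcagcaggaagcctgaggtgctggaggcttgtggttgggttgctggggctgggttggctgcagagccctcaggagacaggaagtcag
Fyn: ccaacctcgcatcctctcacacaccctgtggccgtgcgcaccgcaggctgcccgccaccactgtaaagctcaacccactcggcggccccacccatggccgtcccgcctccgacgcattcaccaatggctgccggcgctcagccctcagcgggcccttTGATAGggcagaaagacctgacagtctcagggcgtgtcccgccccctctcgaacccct
Neither Lck window held a GATA motif, and Fyn held 1, which begins 93 bases before the start. Across all 32851 mouse windows of this length, 26.5% held at least 1 GATA motif, and of the 12 windows of the 9 genes 4 did, in Fyn, Lcp2, Vav1 and Rasgrp1. A match is a description of the letters, and these windows are not the mutated sites, which lie in NMe.

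Among the adaptors, Lat (ENSMUSG00000030742.7, chr7:126363824-126369570, minus strand), the membrane scaffold that Zap70 phosphorylates, had 43819.6, 31324 and 33635 normalised reads in the mutant libraries against 27933, 30641 and 26710.2 in the wild-type libraries. The groups did not overlap, but mutant replicate 2 and wild type replicate 2 lay close together, and the mutant libraries varied more, with a coefficient of variation of 18.3% against 7.08% in wild type. The log2 change was 0.34 ± 0.13 (SE, 95% confidence interval 0.06 to 0.62), and it did not pass the threshold (limma adjusted p = 0.0915). With all libraries brought to equal totals it did (0.0454).

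Lcp2 (ENSMUSG00000002699.13, chr11:34046920-34092295, plus strand), the cytosolic adaptor that joins Lat to Vav1, had 13935, 14596 and 12599.8 normalised reads in the mutant libraries against 12483, 11614 and 11133 in the wild-type libraries. The lowest mutant value and the highest wild-type value nearly met. The log2 change was 0.22 ± 0.10 (SE, 95% confidence interval 0.01 to 0.43), which did not pass (limma adjusted p = 0.133). Of the exon bases of Lcp2, 6.32% overlap 4930469K13Rik on the other strand, and because the library kit does not record the strand, reads there cannot be assigned to one of the genes. Lcp2 was the gene of the 9 with most GATA motifs in its window, 3 of them, in the stretch chr11:34046678-34046919 (plus strand), which is shown for that reason with the motifs in capitals.
Lcp2: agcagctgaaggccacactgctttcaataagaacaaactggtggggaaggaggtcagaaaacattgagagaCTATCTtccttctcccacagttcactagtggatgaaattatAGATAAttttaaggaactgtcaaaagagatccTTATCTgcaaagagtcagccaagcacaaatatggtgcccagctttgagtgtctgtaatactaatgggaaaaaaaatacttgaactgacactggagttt
The motifs begin 179, 138 and 106 bases before the start, the first and the last of them on the opposite strand. Lat held none, but its window was the only one of the 9 genes with CACGTG, the E-box letters that MYC can bind, 166 bases before the start. CACGTG occurred in 6.02% of all windows, and none of the GATA spellings contains it.

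Vav1 (ENSMUSG00000034116.17, chr17:57279100-57328031, plus strand), an exchange factor for Rac that also holds the Lat complex together, had 17335, 18448 and 16236 normalised reads in the mutant libraries against 17108, 19118 and 17132 in the wild-type libraries. The ranges overlapped, and both the lowest and the highest mutant values lay below their wild-type counterparts. The log2 change was -0.04 ± 0.09 (SE, 95% confidence interval -0.24 to 0.17, limma adjusted p = 0.816). Its sign turned with all libraries at equal totals (0.023), when mutant replicate 3 was left out (0.0098) and when wild type replicate 2 was left out (0.016). The confidence interval ends below the fitted log2 changes of Lck, Fyn, Prkcq and Rasgrp1.

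Plcg1 (ENSMUSG00000016933.17, chr2:160731300-160775760, plus strand), the phospholipase that makes inositol trisphosphate and diacylglycerol, had 12304, 15671 and 14018 normalised reads in the mutant libraries against 12077, 11938 and 10951 in the wild-type libraries. The groups did not overlap, with mutant replicate 1 just above the highest wild-type library. The log2 change was 0.26 ± 0.11 (SE, 95% confidence interval 0.02 to 0.50, limma adjusted p = 0.121), and Plcg1 passed only without mutant replicate 1, at 0.35 and an adjusted p of 0.0437. Other genes on the opposite strand, Zhx3 and the antisense gene Gm27206, overlap 6.68% of its exon bases, where the reads cannot be told apart.

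Prkcq (ENSMUSG00000026778.13, chr2:11172108-11301222, plus strand), protein kinase C theta, which carries the receptor signal towards NF-kappaB, had 8618, 8638 and 8108 normalised reads in the mutant libraries against 5172, 5091 and 4706 in the wild-type libraries. The gap between the groups was far wider than the spread within either, with coefficients of variation of 3.55% in the mutant and 4.99% in wild type. Prkcq rose by 0.76 ± 0.09 on the log2 scale (SE, 95% confidence interval 0.56 to 0.97, limma adjusted p = 0.000652). Leaving out any 1 library gave log2 changes of 0.72 to 0.79 and an adjusted p of at most 0.00517.

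Rasgrp1 (ENSMUSG00000027347.18, chr2:117279993-117343001, minus strand), the exchange factor that diacylglycerol recruits to activate Ras, had 15752, 17963 and 17909 normalised reads in the mutant libraries against 9959, 9435 and 10635 in the wild-type libraries. Every mutant library exceeded every wild-type library by a wide margin. Rasgrp1 rose by 0.78 ± 0.10 on the log2 scale (SE, 95% confidence interval 0.57 to 0.99, limma adjusted p = 0.000674), and by 0.74 to 0.84 with any 1 library left out. The calls of Prkcq and Rasgrp1 held in all 19 alternatives.

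To set the start region of an effector that rose beside that of one that did not, the RefSeq stretches of Rasgrp1 (chr2:117343002-117343127, minus strand) and Vav1 (chr17:57278850-57279099, plus strand) are given on GRCm38.p6, again with GATA motifs in capitals.
Rasgrp1: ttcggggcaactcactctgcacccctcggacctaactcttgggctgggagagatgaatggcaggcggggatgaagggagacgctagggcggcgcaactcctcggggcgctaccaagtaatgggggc
Vav1: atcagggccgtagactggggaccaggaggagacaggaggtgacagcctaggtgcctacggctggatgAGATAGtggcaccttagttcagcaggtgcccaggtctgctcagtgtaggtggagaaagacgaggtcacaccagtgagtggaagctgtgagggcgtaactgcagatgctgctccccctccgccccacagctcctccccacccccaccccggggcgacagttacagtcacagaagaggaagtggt
Vav1, whose level overlapped between the genotypes, held 1 GATA motif beginning 183 bases before its start. In Rasgrp1 the letters TGATAA begin 77 bases before the start, within an annotated exon, and so lie outside the stretch printed. Among the 4 genes called higher, windows of Fyn and Rasgrp1 held a GATA motif, and those of Lck and Prkcq did not. The Prkcq window lies wholly within an annotated exon and is not printed.

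**Figure D2:**
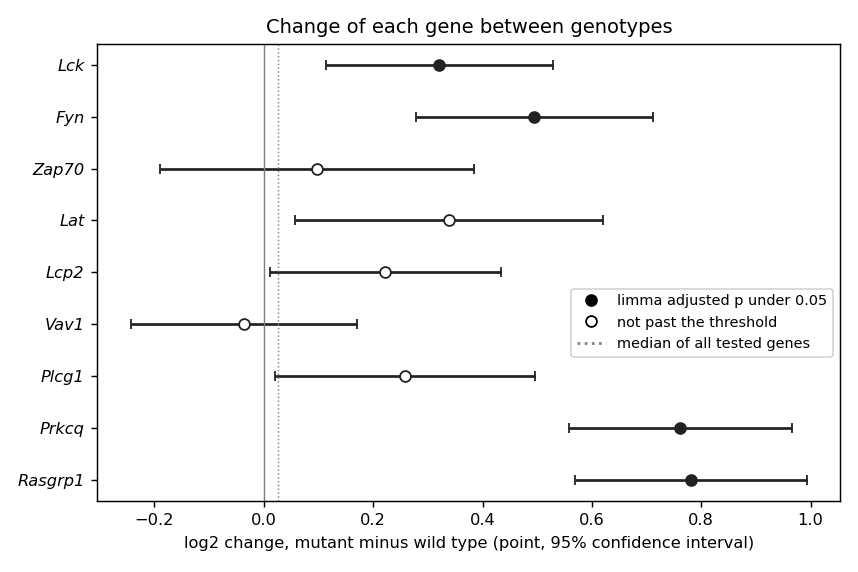
Log2 change (horizontal axis, mutant minus wild type) of each of the 9 genes, with its 95% confidence interval. Filled points passed a limma adjusted p under 0.05, and the dotted line marks the median of all tested genes (0.03). The points of Prkcq (0.76) and Rasgrp1 (0.78) lie apart from those of the other 7 genes, but their intervals overlap those of Fyn and Lat. The intervals of Zap70 and Vav1 include 0.

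Levels of different genes can be set side by side only per length, here as normalised reads per kilobase of all annotated exon bases of the gene. Lck was the highest of the 9 on this scale, with 40692 ± 3831 in the mutant and 32491 ± 1097 in wild type (SD, n = 3 each), above 99.8% of the tested genes in wild type. Lat followed with 13104 ± 2403 in the mutant and 10274 ± 727 in wild type. Vav1 had 4702 ± 300 in the mutant and 4823 ± 313 in wild type, and Lcp2 3075 ± 228 in the mutant and 2634 ± 153 in wild type. At the low end stood Zap70, with 795 ± 68.3 in the mutant and 746 ± 97.8 in wild type, and Prkcq, with 1194 ± 42.4 in the mutant and 705 ± 35.1 in wild type.

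The order of the 9 genes in the wild type was Lck, Lat, Vav1, Lcp2, Rasgrp1, Plcg1, Fyn, Zap70 and Prkcq, and among neighbours in that order only Zap70 and Prkcq overlapped. In the mutant Rasgrp1 overlapped with Lcp2 on this scale, with 3073 ± 225 per kilobase against 1787 ± 107 in wild type, and Prkcq stood above Zap70, its lowest mutant library at 1145 and the highest Zap70 mutant library at 866. Plcg1 (1782 ± 214 in the mutant, 1483 ± 78.2 in wild type) and Fyn (1466 ± 106 in the mutant, 1039 ± 39.1 in wild type) overlapped within the mutant. The order depends on the length used. With the longest transcript in place of all exon bases, Rasgrp1 in the mutant (3291) stayed just below Lcp2 (3762), without overlap but with the highest Rasgrp1 library at 3435 and the lowest Lcp2 library at 3458. Rasgrp1 then overlapped with Plcg1 in the mutant, and Plcg1 and Fyn no longer overlapped. On that length Plcg1 (2741 in the mutant, 2282 in wild type) stood above Rasgrp1 in wild type (1914), and Prkcq (2130 in the mutant, 1257 in wild type) stood above Zap70 (1060 in the mutant, 994 in wild type) in both genotypes.

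The 9 genes together took 0.539 ± 0.025% of all reads in the mutant and 0.411 ± 0.015% in wild type (SD, n = 3 each). Lck alone made up 50.7 ± 1.4% of those reads in the mutant and 51.0 ± 0.54% in wild type.

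**Figure D3:**
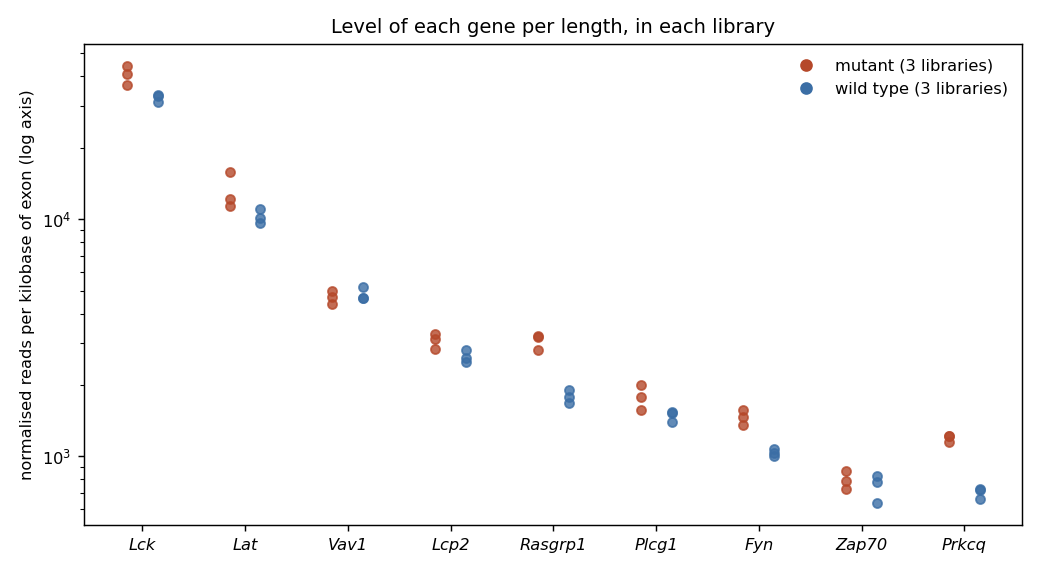
Normalised reads per kilobase of exon (vertical axis, logarithmic) of the 9 genes in each library, mutant left and wild type right for each gene, ordered by the wild-type mean. Lck (40692 in the mutant, 32491 in wild type) lies above all others, and Prkcq passes Zap70 in the mutant.

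A ratio of 2 genes within a library does not depend on how the libraries were scaled, and 6 such ratios between a gene and its partner or paralogue were compared. The ratios are of normalised reads, not per length, so their sign does not show which gene of a pair had more RNA. The log2 ratio of Plcg1 to Plcg2, the phospholipase C gamma of B cells and myeloid cells, was 3.58, 3.78 and 3.92 in the mutant libraries against 2.66, 2.55 and 2.72 in the wild-type libraries. The groups did not overlap, and the difference was 1.12 (two-sided exact permutation test, p = 0.1, adjusted over 6 ratios p = 0.4). A p of 0.1 is the smallest that 3 against 3 libraries allow, so no ratio could pass the threshold.

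The other 5 ratios overlapped between the genotypes. The log2 ratio of Lck to Fyn averaged 4.22 ± 0.14 in the mutant and 4.39 ± 0.10 in wild type (SD, n = 3 each), a difference of -0.17 (exact permutation p = 0.2). Zap70 to Syk, the kinases that can each dock on the receptor chains, averaged -0.66 ± 0.19 in the mutant and -0.75 ± 0.20 in wild type (exact permutation p = 0.7). Per length, Zap70 held the larger part of this pair, 66.4% in the mutant and 64.9% in wild type. Lcp2 to Lat averaged -1.39 ± 0.28 in the mutant and -1.27 ± 0.12 in wild type (exact permutation p = 0.6). Vav1 to Vav2 averaged 3.75 ± 0.20 in the mutant and 3.67 ± 0.22 in wild type (exact permutation p = 0.7), and Vav1 to Vav3 averaged 3.23 ± 0.09 in the mutant and 3.42 ± 0.12 in wild type (exact permutation p = 0.2).

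Each of the genes belongs to a family whose members can do similar work, and the share of the family's RNA held by the gene, per length, was added as a description after the values had been seen. Plcg1 held 86.8, 88.3 and 89.2% of the RNA of the phospholipase C gamma pair in the mutant libraries against 77.5, 76.2 and 78.3% in the wild-type libraries. The shares did not overlap. Plcg2 itself was lower, with 1027, 1138 and 926 normalised reads in the mutant libraries against 1913, 2035 and 1664 in the wild-type libraries (log2 change -0.86 ± 0.13 SE, limma adjusted p = 0.00203), while Plcg1 did not pass.

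Prkcq held 14.0 ± 0.13% of the RNA of 8 protein kinase C genes in the mutant and 9.92 ± 0.47% in wild type (SD, n = 3 each), without overlap. Rasgrp1 held 93.9 ± 1.07% of the RNA of 4 RasGRP genes in the mutant and 90.2 ± 1.08% in wild type, also without overlap. Lck held slightly less of the RNA of 8 Src-family genes in the mutant, 94.3 ± 0.43%, than in wild type, 94.9 ± 0.15%, again without overlap. The shares of Fyn in the Src family (3.41 ± 0.31% in the mutant, 3.04 ± 0.21% in wild type), of Zap70 in the Zap70 and Syk pair (66.4 ± 2.92% in the mutant, 64.9 ± 3.06% in wild type) and of Vav1 among 3 Vav genes (90.5 ± 0.66% in the mutant, 90.9 ± 0.85% in wild type) overlapped.

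**Figure D4:**
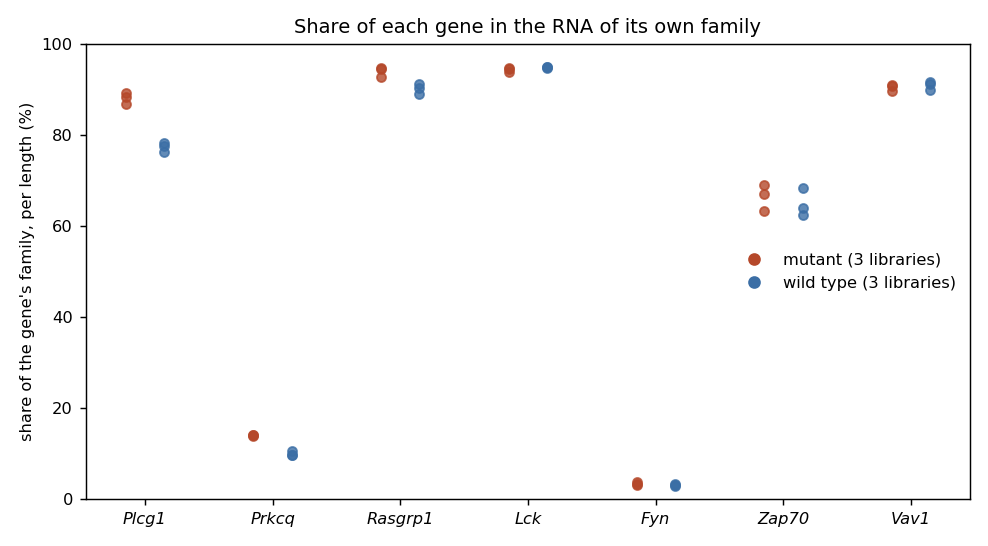
Share of the family's RNA, per length, held by the named gene (vertical axis, percent) in each library, mutant left and wild type right. Plcg1 (88.1% in the mutant, 77.4% in wild type), Prkcq (14.0% in the mutant, 9.92% in wild type) and Rasgrp1 (93.9% in the mutant, 90.2% in wild type) hold a larger share in every mutant library.

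Of the 23 paralogues of the 9 genes, 20 were tested, 2 were called higher and 2 lower, and their median log2 change was 0.14. Those called were 20% of the paralogues tested, near the 18.8% of all tested genes called in either direction. Blk, a Src-family kinase of B cells and gamma-delta T cells, rose by 0.75 ± 0.13 (SE, limma adjusted p = 0.00376), with 1888, 1612 and 1747 normalised reads in the mutant libraries against 1088, 1127 and 913 in the wild-type libraries. The calls of Lat2, an adaptor related to Lat (0.88 ± 0.26, adjusted p = 0.0432), and of the atypical protein kinase C gene Prkci (-0.64 ± 0.18, adjusted p = 0.033) were each lost on leaving out any 1 of 5 libraries, with adjusted p-values as high as 0.126 for Lat2 and 0.102 for Prkci. For Lat2 the exception was wild type replicate 2 and for Prkci wild type replicate 1, and the count of 4 paralogues called came to 2 without mutant replicate 1, mutant replicate 2 or wild type replicate 3. It came to 5 in DESeq2, with voom and with the replicate number as a block, where Prkch was called higher too. The same held with TMM scaling, with robust empirical Bayes and with a minimum mean of 50. With equal totals the count was also 5, with Prkch and Prkca called higher and Prkci lost. Prkch was called higher in edgeR, with library weights and without mutant replicate 3 as well. Lat2 was also lost in edgeR (adjusted p = 0.0593). Syk, the relative of Zap70, had 3326, 3972 and 3972 normalised reads in the mutant libraries against 4386, 3574 and 3347 in the wild-type libraries, which overlap.

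Of 25 other kinases and adaptors of the receptor complex, all tested, 11 were called higher and none lower, with a median log2 change of 0.33 against 0.32 for the 9 genes. Against 7.94% of all tested genes, 44% of this list was called higher. The 4 with the smallest p were Tespa1, Txk, Themis and Sh2d1a. Tespa1, a thymocyte protein that binds inositol trisphosphate receptors, had 9543, 9266 and 8652 normalised reads in the mutant libraries against 5472, 5659.6 and 4979.7 in the wild-type libraries (log2 change 0.77 ± 0.10 SE, limma adjusted p = 0.00071). Txk, a Tec-family kinase, had 2296, 2013 and 3429 in the mutant libraries against 1089, 1070.4 and 1137 in the wild-type libraries (1.19 ± 0.18, adjusted p = 0.00187).

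Themis, an adaptor of thymocyte selection, rose by 0.52 ± 0.09 on the log2 scale (SE, limma adjusted p = 0.00385), and Sh2d1a, which couples SLAM receptors to Fyn, by 0.77 ± 0.14 (adjusted p = 0.00512). Of the 11 calls, 4 held in all 19 alternatives, and 7 genes of the list were called without wild type replicate 2.

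Of 18 negative regulators, all tested, 5 were called higher (Dgka, Cblb, Ptpn22, Cbl and Rasal3) and 1 lower (Ubash3a), with a median log2 change of 0.18. Those called were 33.3% of the list, against 18.8% of all tested genes. Dgka, the kinase that removes the diacylglycerol read by Prkcq and Rasgrp1, had 10317, 10069 and 10697 normalised reads in the mutant libraries against 6055, 5189 and 4966 in the wild-type libraries. It rose by 0.94 ± 0.10 on the log2 scale (SE, limma adjusted p = 0.000373). Ubash3a, a suppressor of T-cell receptor signalling, fell to 2824, 2884 and 2583 normalised reads in the mutant libraries, against 5827, 6147 and 5800.1 in the wild-type libraries (-1.10 ± 0.10, adjusted p = 0.000149).

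Cblb, a ubiquitin ligase of the receptor complex, rose by 0.92 ± 0.13 on the log2 scale (SE, limma adjusted p = 0.00128), and Ptpn22, the phosphatase that acts on Lck and Zap70, by 0.67 ± 0.10 (adjusted p = 0.00131). The calls of these 4 genes, Dgka, Ubash3a, Cblb and Ptpn22, held in all 19 alternatives. Those of Cbl and Rasal3 did not, and 3 genes of the list were called higher without mutant replicate 2, wild type replicate 1 or wild type replicate 2. Dgka and Cblb moved in the same direction as Prkcq and Rasgrp1, and Ubash3a in the other.

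Below Plcg1, the branches were described by lists as well. Of 14 genes of the calcium branch, 3 were called higher and none lower, with a median log2 change of 0.23. Those called were 21.4% of the list, against 7.94% of all tested genes called higher and 18.8% called in either direction. Itpr2, a receptor for inositol trisphosphate, had 23805, 26837 and 25637 normalised reads in the mutant libraries against 15846, 16316 and 16171 in the wild-type libraries (0.66 ± 0.09 SE, limma adjusted p = 0.000901), and its call held in all 19 alternatives. The calls of the transcription factor Nfatc2 (0.53 ± 0.15, adjusted p = 0.0322) and the calcium sensor Stim1 (0.39 ± 0.12, adjusted p = 0.0459) were each lost on leaving out any 1 of 5 libraries, with adjusted p-values as high as 0.109 for Nfatc2 and 0.126 for Stim1, the exceptions being mutant replicate 3 for Nfatc2 and mutant replicate 2 for Stim1. Without mutant replicate 1 or any 1 of the wild-type libraries, 1 gene of this list was called higher.

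Of 15 genes below diacylglycerol, on the NF-kappaB and Ras routes, 0 were called by limma or edgeR, 4 had an unadjusted limma p under 0.05, and DESeq2 called 2. Of all tested genes limma called 18.8%, edgeR 18.4% and DESeq2 24.4%. The median log2 change of this list was -0.03, and it turned positive when mutant replicate 1 (0.05) or wild type replicate 3 (0.03) was left out, with library weights (0.03) and with equal totals (0.03). The genes that stand between diacylglycerol and this list, Prkcq and Rasgrp1, were those of the 9 with the largest log2 changes. Whether the lists differ from each other was not tested.

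**Figure D5:**
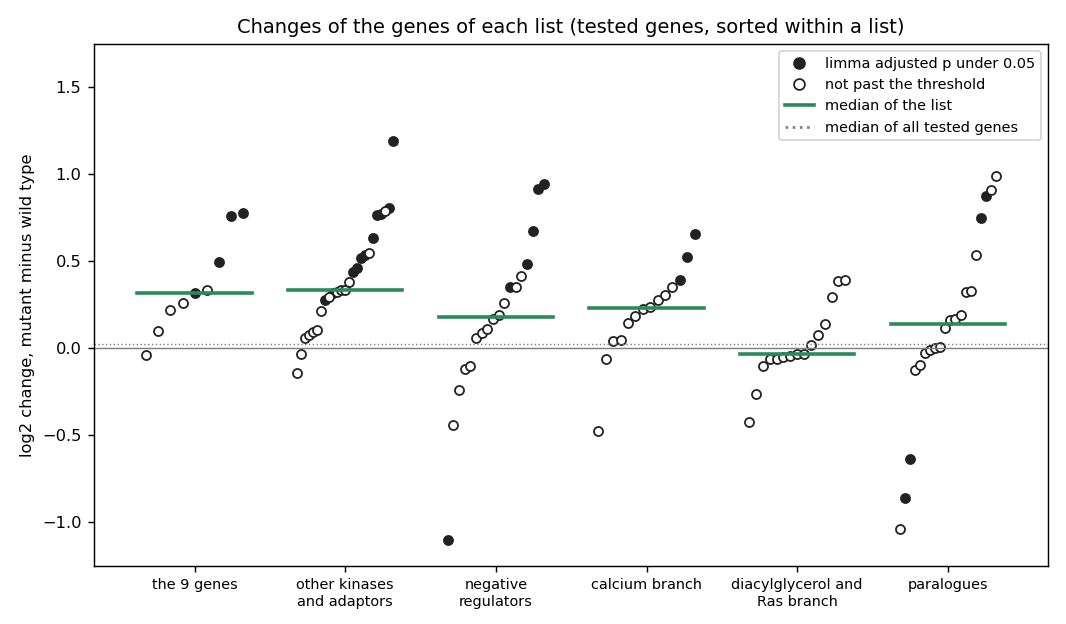
Log2 change (vertical axis, mutant minus wild type) of each tested gene of the 9 genes, of 4 pathway lists and of their paralogues, sorted within a list. Filled points passed a limma adjusted p under 0.05, green lines are list medians (0.32 for the 9 genes, 0.33, 0.18, 0.23, -0.03 and 0.14 for the others from left to right), and the dotted line is the median of all tested genes (0.03).

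The immediate early and heat shock list, genes that thymocytes switch on both after receptor signals and during handling, summed to 516747 to 909150 normalised reads in the mutant and 431626 to 718059 in wild type, which overlap, and 3 of its 13 genes were called higher (Ier3, Egr1 and Ier2). Of these, Egr1 and Ier2 overlapped between the genotypes and were called neither by edgeR (adjusted p = 0.0592 and 0.0547) nor by DESeq2 (0.112 and 0.119). The count came to 1 without mutant replicate 1, mutant replicate 3, wild type replicate 2 or wild type replicate 3, and to 9 without wild type replicate 1. With all 6 libraries 23.1% of the list was called higher. Of all tested genes 7.94% were called higher and 18.8% in either direction. The part of handling in the changes of the 9 genes was not tested.

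The tested genes whose log2 profile over the 6 libraries was most like that of Prkcq, by Pearson's r as a measure of likeness, were Ephb6 (0.999), 2610307P16Rik (0.999) and Tespa1 (0.997). Ephb6, an Eph receptor without kinase activity, had 5804, 5935 and 5553 normalised reads in the mutant libraries against 2893, 2801 and 2517 in the wild-type libraries. Because the 6 libraries form 2 separate groups, such an r mostly measures the difference between the genotypes, and 460 tested genes reached 0.95.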

How the data were processed

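RNA was measured in 6 libraries, 3 per genotype. Per the labels' protocols, total RNA was made into full-length cDNA with the SMART-Seq v4 low-input kit, turned into Nextera XT libraries and sequenced as read pairs. This chemistry keeps no record of strand, and amplifying so little RNA makes rare transcripts vary more. Per the submitters' processing notes, the tools were STAR 2.5.3, featureCounts and DESeq2 1.20.0, with mm10 and GRCm38 as builds. The sources used here do not give the annotation or the counting options.

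The deposited values are a normalised signal, each library's read counts having been divided by its own size factor before they were deposited, as the values show: 100.0% of 126810 values came out as whole reads within 0.1 reads when multiplied by the recovered factor. The listed genes have 20 or more reads each in the 6 libraries together. Symbols, positions and exon lengths came from GENCODE M21 on GRCm38, with a symbol for 21100 of 21135 genes. No pair of libraries of a group came near the agreement of a repeated library (chi-square divided by its degrees of freedom was 26.4 to 55.4).

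Genotypes were compared in R 4.3.3 with limma 3.58.1, by lmFit and a trended eBayes on log2(value + 1), two-sided, in the 17815 genes whose mean reached 10, with Benjamini-Hochberg adjustment at 0.05. Log2 changes are fitted on that scale, which understates changes of low genes, and fold values are ratios of group means. Errors are standard errors of the fit for changes and standard deviations for levels. Count tests on the recovered reads called 3283 genes in edgeR 4.0.16 and 4168 in DESeq2 1.42.0. Other alternatives were the pseudocount, filter, scaling, variance model, library weights, the replicate number as a block, limma's voom and leaving out 1 library at a time, 19 in all. The fits were also run on simulated counts with known changes, as a check of the code that does not bear on any single call here.

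The 9 genes, the pathway and marker lists and the rules were chosen with earlier results of these data known, so list counts and medians are descriptions and no list was tested as a set. Named besides the 9 genes were Myc, the ratio partners, up to 4 called members of each list with the smallest p, and the 3 genes nearest to Prkcq in profile. Any other gene named, markers included, was chosen after its values were seen. A few list members are not reported here by name.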

Additional observations from a re-analysis of the deposited data

How the results depend on the processing

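Over 13 processing alternatives and 6 fits that each left out 1 library, between 3 and 5 of the 9 genes were called. Fyn, Prkcq and Rasgrp1 were called in each of the 19, Lck in 11, Lat in 1 and Plcg1 in 1, and Zap70, Lcp2 and Vav1 in none. The count of all genes called was 1916 without a mean-variance trend and 1905 to 2788 with 1 library left out, lowest without wild type replicate 2, and the cause was not tested. Leaving out 1 library gave 3 to 4 called genes of the 9, and log2 changes of 0.44 to 0.55 for Fyn, 0.19 to 0.44 for Lat, 0.18 to 0.28 for Lcp2, 0.17 to 0.35 for Plcg1, -0.082 to 0.016 for Vav1 and -0.013 to 0.17 for Zap70. Signs turned for Vav1 with all libraries at equal totals (0.023), on leaving out mutant replicate 3 (0.0098) or wild type replicate 2 (0.016), and for Zap70 on leaving out wild type replicate 3 (-0.013). They also turned for the log2 ratio of Lcp2 to Lat without mutant replicate 1 (0.016, with a range of -0.26 to 0.016 over the 6 libraries left out) and for Vav1 to Vav2 without mutant replicate 2 (-0.02) or wild type replicate 1 (-0.038, with a range of -0.038 to 0.18). The Plcg1 to Plcg2 difference stayed at 1.04 to 1.21. The other kinases and adaptors numbered 4 called without a mean-variance trend, the calcium branch 1 without it and 5 with equal totals or in DESeq2, and the diacylglycerol and Ras branch 1 with library weights or equal totals.

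Libraries of the same number did not deviate together (r = -0.02, -0.07 and -0.01), and those of unlike number gave r of -0.06 to 0.10. The values thus gave no sign of pairing by number. With 3 libraries per group they cannot show whether the libraries were prepared in pairs. With the replicate number as a block, 3066 genes were called and 4 of the 9, Lck at an adjusted p of 0.0414, Fyn at 0.0132, Prkcq at 0.0017 and Rasgrp1 at 0.0016.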
